A study of Mus musculus with 36 samples.

Results

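Thrombospondins and the SPARC proteins are secreted glycoproteins of the extracellular matrix, and a small set of their genes was followed here in perisynaptic Schwann cells (PSCs), the glia that cover the neuromuscular junction. The set was chosen by name and holds 8 genes: the 5 thrombospondins Thbs1, Thbs2, Thbs3, Thbs4 and Comp, the genes Sparc and Sparcl1, and Cacna2d1. All 8 were found by Ensembl identifier among the 52636 genes of the count table, and all 8 passed the filter on low counts.

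In the brain, thrombospondins released by astrocytes promote the formation of excitatory synapses, and the calcium channel subunit alpha2delta-1, encoded by Cacna2d1, is their receptor on neurons. Thbs1 and Thbs2 encode proteins that assemble as trimers, while Thbs3, Thbs4 and Comp encode proteins that assemble as pentamers. Sparcl1 encodes hevin, which promotes synapse formation and can bridge neurexins and neuroligins, and SPARC, a related collagen-binding protein, counteracts hevin. Outside the nervous system thrombospondins and SPARC are products of fibroblasts, tendon, cartilage and vessels, so their level in a sorted population has to be read beside the other cells that the population could hold.

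The libraries came from skeletal muscle of juvenile S100β-GFP;NG2-dsRed mice, in which the S100b promoter drives GFP and the Cspg4 promoter, the promoter of the NG2 gene, drives DsRed. All groups carried both transgenes and none was treated. Muscle of the diaphragm, chest and limbs was dissociated with collagenase from mice of P15 to P21 by the study's methods. Cells were sorted by FACS, with 1 mouse for each library. The labels conflict with these ages. Their upper age is P21 for library 1 alone and later for every other library, with the latest value repeated from library 26 to library 36. The double-positive cells, labelled NG2DsRed+/S100GFP+, are the PSCs (9 libraries), the cells with GFP alone are the S100β-GFP+ cells (8 libraries) and the cells with DsRed alone are the NG2-dsRed+ cells (10 libraries). After removal of failed samples the study kept fewer S100β-GFP+ replicates than the table holds libraries, and which library was removed is not stated, so the S100β-GFP+ libraries used here may include a failed one. RNA of these few cells was amplified with a SMART-Seq kit before sequencing. Counts on genes ranged from 5334916 to 9592875 in PSC libraries, from 5221655 to 9411399 in S100β-GFP+ libraries and from 5712256 to 7918320 in NG2-dsRed+ libraries. Levels are given as CPM, counts per 1000000 after TMM normalization.

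The sorted populations were checked against their markers. Cspg4 was at 686 ± 132 CPM over the 9 PSC libraries (mean ± SD), 70.7 ± 42.1 over the 8 S100β-GFP+ libraries and 662 ± 137 over the 10 NG2-dsRed+ libraries. S100b was at 254 ± 198, 29.2 ± 10.0 and 6.51 ± 4.88 CPM in the same order. The S100β-GFP+ libraries thus had less RNA of the gene whose promoter marks them than the PSC libraries. Of 10 Schwann cell lineage markers none was at 0 in S100β-GFP+ cells, but their sum was only 79.6 to 477 CPM there, against 2723 to 3855 CPM in PSCs. Sox10, the transcription factor of that lineage, had a median of 16.9 CPM in S100β-GFP+ cells and 465 CPM in PSCs. The 10 markers of myelinating Schwann cells were not low in the same way, and summed to 1555 to 3765 CPM in S100β-GFP+ cells, 2577 to 3520 CPM in PSCs and 312 to 1088 CPM in NG2-dsRed+ cells. Between PSCs and S100β-GFP+ cells 1 of these 10 was higher, 1 was lower and 8 did not pass the test, while all 10 were higher in S100β-GFP+ than in NG2-dsRed+ cells.

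Other cell types were represented in the same S100β-GFP+ libraries. The 10 fibroblast markers, led by Col3a1, summed to 25265 to 55362 CPM, against 1592 to 4668 CPM in PSCs and 3487 to 25143 CPM in NG2-dsRed+ cells. The 10 macrophage and leukocyte markers, led by Lyz2, summed to 1310 to 12032 CPM, against 35.5 to 569 CPM in PSCs, where Fcgr1 was at 0. The name S100β-GFP+ cells is therefore used here for the sorting gate alone. NG2-dsRed+ libraries held both pericyte and smooth muscle markers (7354 to 15801 CPM over 10 genes, led by Rgs5) and endothelial markers (2072 to 5092 CPM over 10 genes, led by Cdh5). All members of these 2 lists and of the fibroblast list had counts in every cell type.

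A few libraries stood apart. S100β-GFP+ libraries 14, 17 and 22 had 1142 to 3806 CPM of endothelial markers, while the other 5 had 147 to 253 CPM. The same 3 libraries had counts on 25890 to 38568 genes, against 19669 to 23292 in the other 5. PSC library 31 had 4798 CPM of 12 tenocyte and chondrocyte markers, against at most 99.8 CPM in the other 8 PSC libraries. In that library the cartilage collagen Col2a1 reached 3841 CPM and Acan, the gene of the cartilage proteoglycan aggrecan, 284 CPM. PSC library 18 had counts on 14616 genes, against 20203 to 22533 in the other 8 PSC libraries, and was the PSC library with the least Thbs3, Thbs4, Comp and Cacna2d1. Without it the call of none of the 8 genes changed in any comparison, while the count of all called genes went from 7199 to 7920 for PSCs against S100β-GFP+ cells and from 6743 to 7413 for PSCs against NG2-dsRed+ cells. Where leaving out such libraries changed a call, both values are given.

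**Figure D1:**
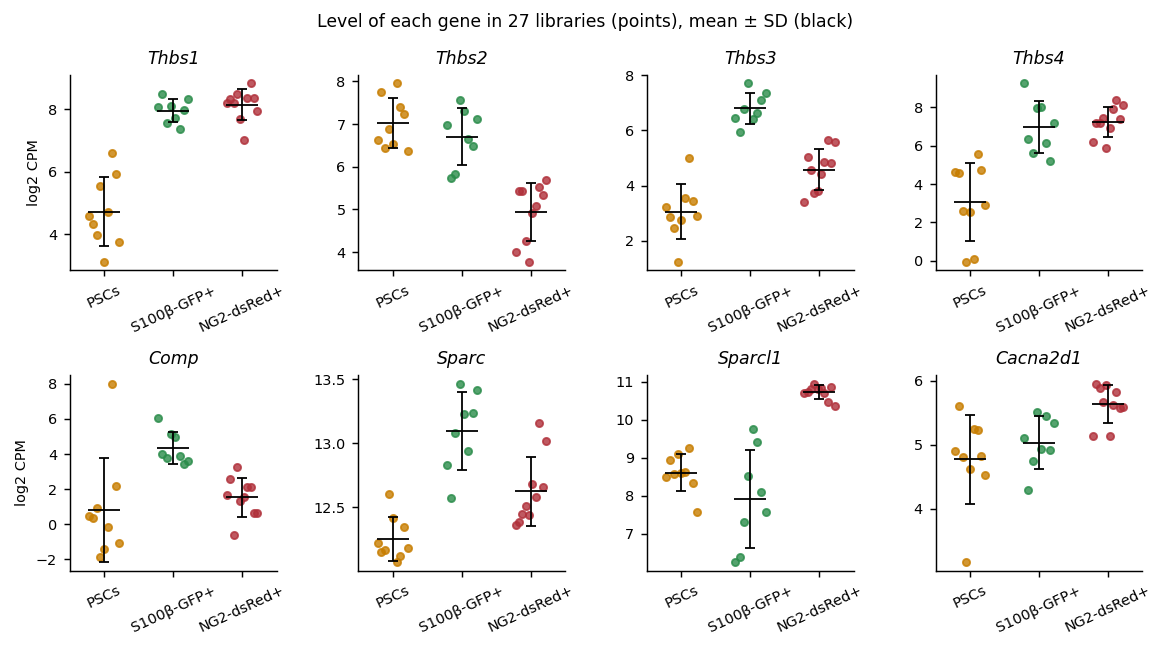
Level of each of the 8 genes in log2 CPM (vertical axis, prior count 2) in the 9 PSC, 8 S100β-GFP+ and 10 NG2-dsRed+ libraries. Points are libraries and black marks are the mean ± SD. PSC points of Thbs1 lie below all others, and the single high PSC point of Comp is library 31.

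Thbs1 and Thbs2, the genes of the trimeric thrombospondins, had different patterns: Thbs1 was lower in PSCs than in both other populations, while Thbs2 was higher than in NG2-dsRed+ cells alone. Thbs1 (ENSMUSG00000040152, chromosome 2, 118111876 to 118127133 of GRCm38, plus strand) had 8.47 CPM in the lowest PSC library, a median of 23.8 and 96.1 CPM in the highest, library 31. In S100β-GFP+ cells it ranged from 166 to 356 CPM (median 261), and in NG2-dsRed+ cells from 130 to 452 CPM (median 306). Every PSC library was below every other library. The mean in PSCs, 34.4 ± 28.5 CPM (SD, n = 9), was 7.43-fold below that of S100β-GFP+ cells (log2 fold change -2.89, standard error, SE, 0.36, adjusted p = 8.27e-08 by edgeR) and 8.59-fold below that of NG2-dsRed+ cells (-3.10, SE 0.35, adjusted p = 2.26e-08). S100β-GFP+ and NG2-dsRed+ cells overlapped, with a log2 difference of -0.21 (SE 0.33, adjusted p = 0.676). In bulk libraries a smaller share of cells using a gene and less of its RNA in each cell cannot be told apart.

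Thbs2 (ENSMUSG00000023885, chromosome 17, 14665500 to 14694235, minus strand) was the thrombospondin with the most RNA in PSCs. It ranged from 82.8 to 248 CPM in PSCs (median 118), from 53.4 to 190 CPM (median 112) in S100β-GFP+ cells, and from 13.4 to 51.2 CPM (median 36.7) in NG2-dsRed+ cells. PSC and S100β-GFP+ libraries overlapped and all of them were above every NG2-dsRed+ library. Thbs2 was 4.19-fold higher in PSCs than in NG2-dsRed+ cells (log2 fold change 2.07, SE 0.28, adjusted p = 5.93e-07 by edgeR) and was also higher in S100β-GFP+ than in NG2-dsRed+ cells (1.77, SE 0.29, adjusted p = 1.28e-05). Between PSCs and S100β-GFP+ cells the log2 difference was 0.30 (SE 0.29, adjusted p = 0.419), no larger than the spread between libraries.

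The balance between these closely related genes was taken in each library as the ratio of Thbs2 to Thbs1, both in CPM per kb of exon. In PSCs the ratio ranged from 1.52 to 9.49 (median 4.78), so Thbs2 was ahead in 9 of 9 libraries. In S100β-GFP+ cells it ranged from 0.130 to 0.648 (median 0.388), and in NG2-dsRed+ cells from 0.0463 to 0.199 (median 0.0966), so Thbs1 was ahead in every one of these libraries. The mean log2 ratio in PSCs was 3.56 above that of S100β-GFP+ cells (exact permutation test, two-sided, p = 8.2e-05, adjusted p = 0.000123). It was 5.52 above that of NG2-dsRed+ cells (exact permutation test, p = 2.2e-05, adjusted p = 6.5e-05). Each p was the smallest that this test can give. Against NG2-dsRed+ cells this outcome was fixed beforehand, because every PSC library was below them for Thbs1 and above them for Thbs2. That p therefore restates the levels and is no further evidence. S100β-GFP+ cells were 1.96 above NG2-dsRed+ cells (exact permutation test, p = 0.000183, adjusted p = 0.000219). These ratios, and those of Sparcl1 to Sparc given further on, were chosen after the levels had been seen, and p-values were adjusted over the 6 tests of both.

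Thbs3, Thbs4 and Comp, the genes of the pentameric thrombospondins, were low in most PSC libraries. Thbs3 (ENSMUSG00000028047, chromosome 3, 89215180 to 89226837, plus strand) ranged from 2.09 to 31.5 CPM in PSCs (median 7.23), from 61.7 to 208 CPM (median 104) in S100β-GFP+ cells, and from 10.3 to 49.5 CPM (median 25.6) in NG2-dsRed+ cells. PSC and S100β-GFP+ libraries did not overlap, and the highest PSC library was again library 31, with the next at 11.4 CPM. Thbs3 was 11.9-fold lower in PSCs than in S100β-GFP+ cells (log2 fold change -3.57, SE 0.39, adjusted p = 1.01e-08 by edgeR) and lower than in NG2-dsRed+ cells (-1.41, SE 0.36, adjusted p = 0.00179). It differed as well between the other two populations, with S100β-GFP+ cells higher in 8 of 8 libraries (2.16, SE 0.36, adjusted p = 1.89e-05). Mtx1, a gene of a mitochondrial outer membrane protein, spans Thbs3 on the opposite strand and shares 318 exonic bases with it, and the strand setting of the counting is not given in the sources. Mtx1 had 16.7 ± 3.90 CPM over the 9 PSC libraries (mean ± SD), 15.8 ± 3.75 over the 8 S100β-GFP+ libraries and 16.5 ± 3.29 over the 10 NG2-dsRed+ libraries, and passed the test in no comparison.

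Thbs4 (ENSMUSG00000021702, chromosome 13, 92751590 to 92794818, minus strand), known for its place in tendon and at muscle attachments, ranged from 0.698 to 46.3 CPM in PSCs (median 7.12). In S100β-GFP+ cells it ranged from 37.1 to 604 CPM (median 114), and in NG2-dsRed+ cells from 58.8 to 331 CPM (median 154). Every PSC library was below every NG2-dsRed+ library, and all PSC libraries except library 31 were below every S100β-GFP+ library. Thbs4 was lower in PSCs, by a log2 fold change of -3.59 from S100β-GFP+ cells (SE 0.64, adjusted p = 2.95e-05, edgeR) and of -3.46 from NG2-dsRed+ cells (SE 0.62, adjusted p = 3.71e-05). S100β-GFP+ cells differed from NG2-dsRed+ cells by 0.13 (SE 0.57, adjusted p = 0.896).

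Comp (ENSMUSG00000031849, chromosome 8, 70373558 to 70382066, plus strand), which encodes cartilage oligomeric matrix protein, had a value that depended on a single library. It was at 257 CPM in PSC library 31 and at 0 to 4.26 CPM in the other 8 PSC libraries, whose median was 0.813. In S100β-GFP+ cells it ranged from 10.7 to 65.4 CPM (median 15.1), and in NG2-dsRed+ cells from 0.379 to 9.39 CPM (median 2.79). The other 8 PSC libraries were thus below every S100β-GFP+ library, and every S100β-GFP+ library was above every NG2-dsRed+ library. With library 31, Comp was higher in PSCs than in NG2-dsRed+ cells (log2 fold change 3.12, SE 1.05, adjusted p = 0.0162 by edgeR) and its difference from S100β-GFP+ cells was 0.25 (SE 1.01, adjusted p = 0.866). The sign also turned by tool with library 31 kept, as DESeq2's Wald test gave -1.05 (adjusted p = 0.119) and -3.98 (adjusted p = 1.92e-10) for these differences, and quality-weighted limma-voom -0.78 (adjusted p = 0.461) and -3.81 (adjusted p = 0.000187). Without library 31 edgeR had it lower in PSCs than in both, with -1.58 (adjusted p = 0.0322) against NG2-dsRed+ cells and -4.44 (adjusted p = 1.7e-06) against S100β-GFP+ cells.

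In S100β-GFP+ cells Comp was higher than in NG2-dsRed+ cells (2.87, SE 1.06, adjusted p = 0.036). That call was lost without S100β-GFP+ libraries 14, 17 and 22 (2.78, adjusted p = 0.0738), and also without any single one of S100β-GFP+ libraries 1 and 14 and NG2-dsRed+ libraries 9, 15, 21, 30 and 35 (adjusted p = 0.0517 to 0.0850). Of the 12 tenocyte and chondrocyte markers in library 31, 5 were at their highest of all 27 libraries, namely Col2a1, Acan, Col9a1, Matn3 and Cnmd. Library 31 also had the highest Thbs1, Thbs3, Thbs4 and Sparcl1 of the PSC libraries. In S100β-GFP+ cells the library with the most Comp and Thbs4, library 1, had 1298 CPM of these markers, against at most 642 CPM in the other 7, led there by Fmod (776 CPM in library 1). The part of such cells in these values was not tested.

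**Figure D2:**
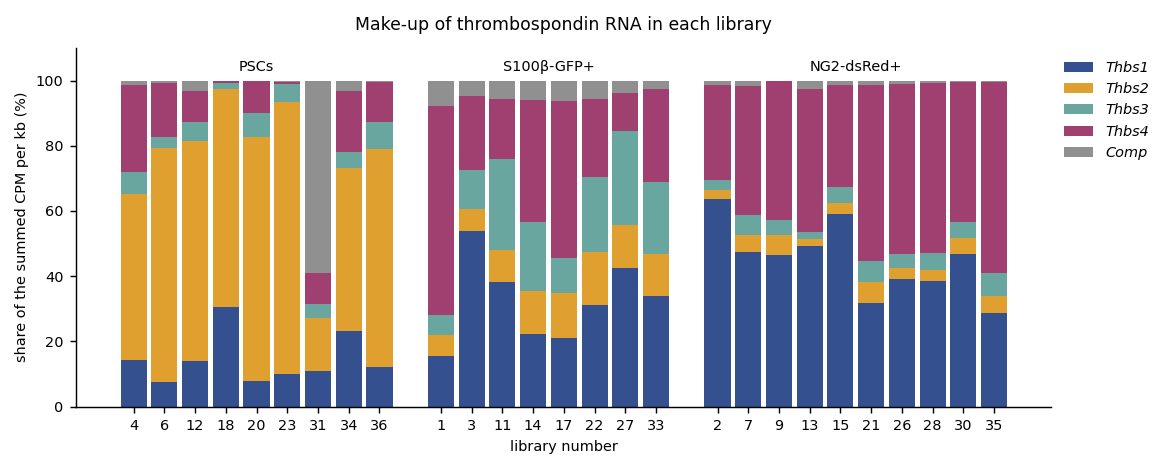
Share of each of the 5 thrombospondin genes in their summed CPM per kb of exon (vertical axis, percent) in each library (horizontal axis, library number). Thbs2 (yellow) makes up the largest share in 8 of 9 PSC libraries, Comp (grey) in PSC library 31, and Thbs1 (blue) or Thbs4 (purple) in every S100β-GFP+ and NG2-dsRed+ library.

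Summed per kb of exon, the 5 thrombospondin genes had a median level of 27.5 CPM per kb in PSCs (17.7 to 147), 132 in S100β-GFP+ cells (81.5 to 286) and 114 in NG2-dsRed+ cells (57.1 to 193). PSC library 31, at 147 CPM per kb, was the only PSC library above the lowest S100β-GFP+ library. The make-up of this sum differed from one population to the next. The median share of Thbs2 was 66.9% over PSC libraries, 12.9% over S100β-GFP+ and 4.19% over NG2-dsRed+ libraries. Thbs1 made up 12.2%, 32.6% and 46.6%, and Thbs4 9.70%, 26.2% and 43.4%. Thbs2 was the leading thrombospondin in 8 PSC libraries. Thbs1 led in 5 S100β-GFP+ and 6 NG2-dsRed+ libraries, and Thbs4 led in the remaining 3 and 4.

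The 250 bases before the annotated start are shown for Thbs2, Thbs3 and Thbs4, the thrombospondin genes with an entry in the RefSeq promoter table of GRCm38.p6 used here, because their RNA was spread differently over the 3 populations. Sequences run 5′ to 3′ on the strand of the gene. Capitals mark GGGCGG (GC box), CCAAT and TATAAA, or their reverse complements, and CANNTG (E-box) and TGANTCA (AP-1) were searched as well, with E-boxes left in lower case. The regions are chr17:14694263-14694512 (Thbs2, minus strand), chr3:89214930-89215179 (Thbs3, plus strand) and chr13:92794819-92795068 (Thbs4, minus strand).
Thbs2: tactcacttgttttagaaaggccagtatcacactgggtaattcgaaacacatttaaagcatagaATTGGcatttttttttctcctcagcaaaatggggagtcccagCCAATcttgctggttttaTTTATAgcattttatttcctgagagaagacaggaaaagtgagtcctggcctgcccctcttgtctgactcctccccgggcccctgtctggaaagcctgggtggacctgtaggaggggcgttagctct
Thbs3: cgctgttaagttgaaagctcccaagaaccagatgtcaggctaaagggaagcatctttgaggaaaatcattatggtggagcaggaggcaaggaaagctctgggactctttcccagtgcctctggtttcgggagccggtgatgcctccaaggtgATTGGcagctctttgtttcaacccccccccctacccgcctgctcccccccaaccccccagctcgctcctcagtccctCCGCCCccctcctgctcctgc
Thbs4: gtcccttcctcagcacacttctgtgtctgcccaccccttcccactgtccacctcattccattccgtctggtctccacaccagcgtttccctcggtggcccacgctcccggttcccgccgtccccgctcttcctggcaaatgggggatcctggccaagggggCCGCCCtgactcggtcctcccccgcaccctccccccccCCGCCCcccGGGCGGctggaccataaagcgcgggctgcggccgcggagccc
The upstream sequence of Thbs2, the gene that led in PSCs, had 46.8% G and C, 2 CCAAT matches, 1 TATAAA match and no GC box. That of Thbs4 had 70.8% G and C and 3 GC boxes without CCAAT or TATAAA. Thbs3 lay between them with 58.8% G and C, 1 CCAAT match and 1 GC box. Each of the 3 sequences held 1 E-box and none held the AP-1 letters. The TATAAA match of Thbs2 was the reverse complement, TTTATA, with its first base at -126 from the annotated start. Of 32544 RefSeq promoters of this length, 33.0% held a GC box, 33.8% CCAAT, 12.3% TATAAA, 66.2% an E-box and 6.73% the AP-1 letters, and the median content of G and C was 52.4%. A match in these letters is a description of the sequence, and binding was not measured.

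Sparc (ENSMUSG00000018593, chromosome 11, 55394500 to 55423183, minus strand) was the most abundant gene of the set in every population. By mean CPM per kb of exon it ranked 24th of 52489 genes in PSCs, 22nd in S100β-GFP+ cells and 15th in NG2-dsRed+ cells. It ranged from 4313 to 6217 CPM in PSCs (median 4650), from 6079 to 11313 CPM (median 9135) in S100β-GFP+ cells, and from 5264 to 9156 CPM (median 5979) in NG2-dsRed+ cells. The spread within PSCs was small, and 8 of the 9 PSC libraries were below every S100β-GFP+ library, while PSC and NG2-dsRed+ libraries overlapped. Sparc was 1.82-fold lower in PSCs than in S100β-GFP+ cells (log2 fold change -0.86, SE 0.17, adjusted p = 0.000143 by edgeR). Its difference from NG2-dsRed+ cells, -0.39 (SE 0.16, adjusted p = 0.0566), was just short of the threshold, and S100β-GFP+ cells were above NG2-dsRed+ cells (0.47, SE 0.17, adjusted p = 0.0288). That last call was lost without S100β-GFP+ libraries 14, 17 and 22 (0.38, adjusted p = 0.136), and without any single one of S100β-GFP+ libraries 14, 27 and 33 and NG2-dsRed+ libraries 7 and 15 (adjusted p = 0.0509 to 0.0690). Without S100β-GFP+ library 3 the difference of PSCs from NG2-dsRed+ cells passed the threshold (-0.39, adjusted p = 0.0456 by edgeR). With all libraries it passed by DESeq2's Wald test (-0.35, adjusted p = 0.0188) and by quality-weighted limma-voom (-0.35, adjusted p = 0.0128). With a term for the share of Lars2, Gm23935 and Gm15564 in each library, edgeR gave -0.44 (adjusted p = 0.0175). Under 32 of 36 alternatives it stayed short of the threshold.

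Sparcl1 (ENSMUSG00000029309, chromosome 5, 104079111 to 104113733, minus strand), the hevin gene, ranged from 189 to 611 CPM in PSCs (median 386). In NG2-dsRed+ cells it ranged from 1314 to 1968 CPM (median 1747), and every NG2-dsRed+ library was above every PSC and S100β-GFP+ library. Sparcl1 was 4.15-fold lower in PSCs than in NG2-dsRed+ cells (log2 fold change -2.05, SE 0.34, adjusted p = 1.21e-05 by edgeR). S100β-GFP+ cells were 5.04-fold lower than NG2-dsRed+ cells (-2.33, SE 0.36, adjusted p = 6.22e-06), a difference that grew to -3.47 without S100β-GFP+ libraries 14, 17 and 22.
S100β-GFP+ libraries were split for this gene. Libraries 14, 17 and 22 had 364 to 867 CPM of Sparcl1 and the other 5 had 76.6 to 274 CPM, and the same 3 were the ones with the high endothelial sums given above. They stood apart as well for pericyte and smooth muscle markers (984 to 1645 CPM, against 243 to 870 CPM in the other 5), for 8 markers of satellite cells and myoblasts (29.3 to 83.1 against 11.8 to 22.8 CPM) and for macrophage and leukocyte markers (1310 to 4000 against 6327 to 12032 CPM). With all 8 libraries the difference of PSCs from S100β-GFP+ cells was 0.28 (SE 0.34, adjusted p = 0.529). Without those 3 libraries it was 1.44. They are the S100β-GFP+ libraries with the most Sparcl1 and were chosen with earlier results of these data known, so this value is a description with no test. The endothelial markers of NG2-dsRed+ cells were also above those of PSCs, with all 10 past the test, and the part of any of these cells in the level of Sparcl1 was not tested.

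The balance of hevin RNA to SPARC RNA was taken in the same way. The ratio of Sparcl1 to Sparc, in CPM per kb of exon, had a median of 0.107 in PSCs (0.0523 to 0.177), 0.0294 in S100β-GFP+ cells (0.0135 to 0.116) and 0.387 in NG2-dsRed+ cells (0.197 to 0.435). Sparc was ahead in all 27 libraries, and the NG2-dsRed+ ratios did not overlap those of the other populations. The mean log2 ratio in PSCs was 1.54 above that of S100β-GFP+ cells (exact permutation test, two-sided, p = 0.00436, adjusted p = 0.00436), with overlap, and -1.74 relative to NG2-dsRed+ cells (exact permutation test, p = 2.2e-05, adjusted p = 6.5e-05). Between S100β-GFP+ and NG2-dsRed+ cells it differed by -3.28 (exact permutation test, p = 4.6e-05, adjusted p = 9.1e-05). Both p-values against NG2-dsRed+ cells were the smallest that this test can give. The ranges of Sparcl1 and Sparc given above fixed that outcome beforehand, as they alone keep these ratios from overlapping. Those p-values therefore restate the levels and are no further evidence. Without S100β-GFP+ libraries 14, 17 and 22 the ratio was at most 0.0367 in S100β-GFP+ cells, below every PSC library, and the difference of PSCs from them was 2.25, a description with no test, since these 3 libraries had the most Sparcl1 of their group.

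Cacna2d1 (ENSMUSG00000040118, chromosome 5, 15934691 to 16374511, plus strand), the gene of the thrombospondin receptor, was detected at moderate levels in all populations. It ranged from 8.72 to 48.7 CPM in PSCs (median 28.1), from 19.3 to 45.5 CPM (median 32.2) in S100β-GFP+ cells, and from 34.7 to 61.7 CPM (median 49.8) in NG2-dsRed+ cells. The populations overlapped, but 6 of 9 PSC libraries were below every NG2-dsRed+ library. It was 1.71-fold lower in PSCs than in NG2-dsRed+ cells (log2 fold change -0.77, SE 0.21, adjusted p = 0.00304 by edgeR) and lower in S100β-GFP+ than in NG2-dsRed+ cells (-0.58, SE 0.21, adjusted p = 0.0359). The latter call was lost without any single one of PSC libraries 4, 12, 20 and 34, S100β-GFP+ libraries 1, 3, 11, 17 and 27, and NG2-dsRed+ libraries 7, 9, 15, 28 and 35 (-0.59 to -0.50, adjusted p = 0.0514 to 0.0904). PSCs and S100β-GFP+ cells differed by -0.19 (SE 0.22, adjusted p = 0.50).

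Of the 8 genes, 4 had a difference from S100β-GFP+ cells in PSCs at an adjusted p under 0.05, where 47% of all 15330 tested genes did. None was higher in PSCs (22.9% of all genes) and 4 were lower (24.1% of all genes), namely Thbs1, Thbs3, Thbs4 and Sparc. Between PSCs and NG2-dsRed+ cells 7 of 8 differed, against 44% of all genes. Thbs2 and Comp were higher in PSCs (20.9% of all genes were), the latter with library 31 and by edgeR alone of the 3 tools, and 5 were lower (23.1% of all genes). Between S100β-GFP+ and NG2-dsRed+ cells 6 of 8 differed, against 33.3% of all genes, with 4 higher in S100β-GFP+ cells (18.1% of all genes) and 2 lower (15.2%). That count fell to 3 without NG2-dsRed+ library 15, when Comp, Sparc and Cacna2d1 no longer passed. Populations did not overlap for 2, 4 and 4 of the 8 genes in the 3 comparisons, where 15.5%, 13.9% and 11.6% of all tested genes did not. The median log2 fold change of the 8 genes was -0.52, -1.09 and 0.30, and that of all tested genes 0.04, 0.02 and -0.02. Each pair of comparisons shares a set of libraries, so the 3 counts are not independent of each other.

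**Figure D3:**
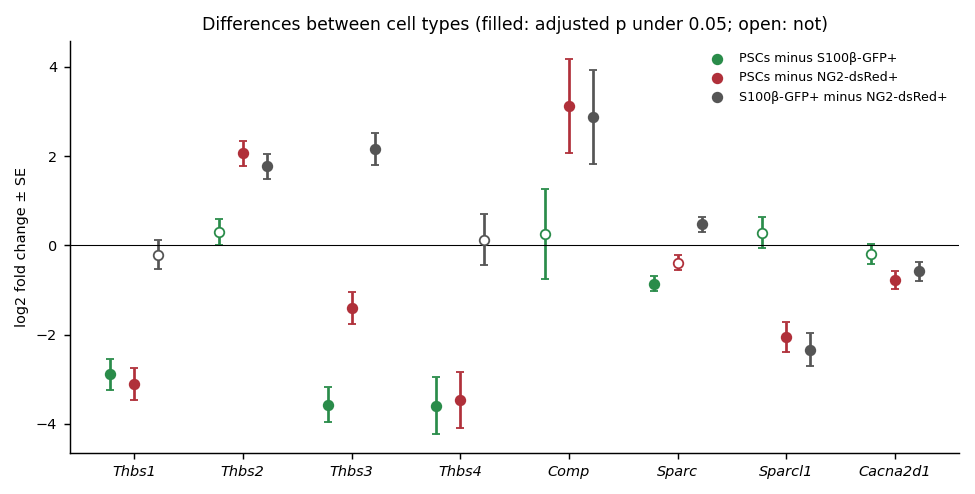
Log2 fold change of each gene (vertical axis, points with their SE) between each pair of populations. Filled points have an adjusted p under 0.05 and open points do not; Thbs1 and Thbs4 lie between -3.59 and -2.89 in PSCs against both other populations, and the points of Comp for PSCs carry library 31.

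Fibroblast markers moved with several of these genes. All 10 fibroblast markers were lower in PSCs than in either other population, as Thbs1, Thbs3 and Thbs4 were. The relation was therefore computed within each population, between each gene's log2 CPM and the log2 of the summed CPM of the 10 fibroblast markers, in 24 relations. The labels give no batch, and the points of a relation share their library's scaling.

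In the 10 NG2-dsRed+ libraries Thbs3 rose with the fibroblast sum (Pearson's r = 0.969, permutation p = 1e-05, the smallest that these permutations can give, adjusted p = 0.00024; Spearman's rho = 0.976, permutation p = 5e-05, adjusted p = 0.0012). So did Thbs4 (r = 0.919, permutation p = 0.0004, adjusted p = 0.0032; rho = 0.855, permutation p = 0.00296, adjusted p = 0.0219) and Thbs2 (r = 0.901, permutation p = 0.00014, adjusted p = 0.00168; rho = 0.891, permutation p = 0.00132, adjusted p = 0.0158). Without the 2 libraries farthest from the median sum, r was 0.959 for Thbs3, 0.841 for Thbs4 and 0.782 for Thbs2. Thbs1 did not follow the sum in these libraries (r = 0.322, permutation p = 0.361, adjusted p = 0.464; rho = 0.370, permutation p = 0.295, adjusted p = 0.417).

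In the 8 S100β-GFP+ libraries Sparc rose with the fibroblast sum (r = 0.885, exact permutation p = 0.0032, adjusted p = 0.0174; rho = 0.905, exact permutation p = 0.00456, adjusted p = 0.0219), with r = 0.637 without the 2 farthest libraries. These 4 relations were the ones past 0.05 by both measures, while 8 were by r and 5 by rho. In the 9 PSC libraries only the rho of Thbs3 passed (0.867, exact permutation p = 0.00451, adjusted p = 0.0219; r = 0.619, exact permutation p = 0.0768, adjusted p = 0.168). The part of fibroblasts in these levels was not tested.

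**Figure D4:**
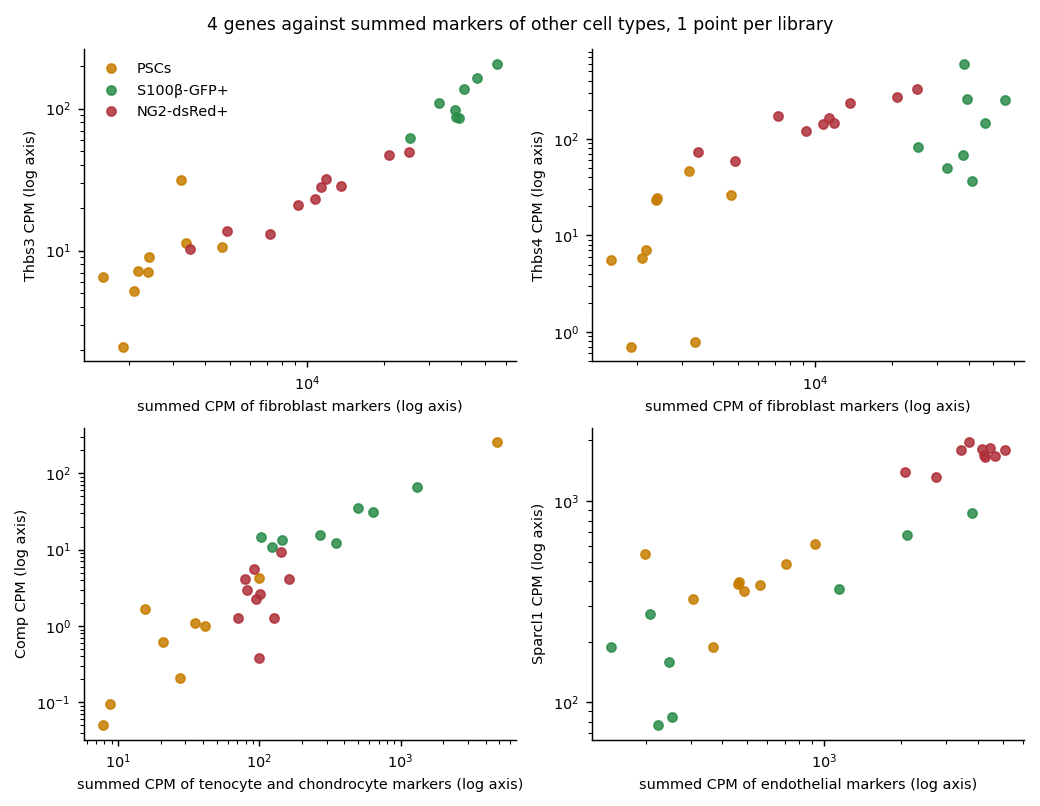
CPM of Thbs3 and Thbs4 against summed fibroblast markers, Comp against summed tenocyte and chondrocyte markers, and Sparcl1 against summed endothelial markers, 1 point per library, all axes logarithmic. Comp at 0 CPM in PSC library 18 is drawn at the lower edge. The PSC point at the upper right of the Comp panel is library 31, and the 3 S100β-GFP+ points to the right in the Sparcl1 panel are libraries 14, 17 and 22.

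Other genes of the pathway were taken from 10 lists of 87 genes, of which 76 passed the filter on low counts. Against S100β-GFP+ cells 18 were higher and 44 lower in PSCs, and against NG2-dsRed+ cells 20 were higher and 40 lower. Of all tested genes 22.9% were higher and 24.1% lower in the first comparison, and 20.9% and 23.1% in the second. The median log2 fold changes were -0.99 and -0.74, beside 0.04 and 0.02 for all tested genes.

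Among 14 other receptors of thrombospondins, PSCs had 5 higher and 6 lower than S100β-GFP+ cells (22.9% and 24.1% of all genes), and 5 higher and 6 lower than NG2-dsRed+ cells (20.9% and 23.1%). Itgb3, the integrin beta3 chain, was higher in PSCs than in both, with 120 ± 48.3 CPM over the 9 PSC libraries (mean ± SD), 33.2 ± 12.4 over the 8 S100β-GFP+ libraries and 15.8 ± 12.3 over the 10 NG2-dsRed+ libraries. Its log2 fold changes were 1.85 (adjusted p = 5.74e-05) and 2.91 (adjusted p = 2.65e-08). Its partner Itgav was higher by 0.66 and 1.14, and the heparan sulphate proteoglycan syndecan-4 (Sdc4) by 1.63 and 2.39, with every PSC library above every other library for Sdc4. Cd36, a scavenger receptor for Thbs1 on endothelium and macrophages, was lower, by -1.61 and -3.18, and Cd47 by -1.78 and -1.04.

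The paralogs of Cacna2d1 were near the limit of detection. Cacna2d2, Cacna2d3 and Cacna2d4 did not pass the filter, and the highest of their means was 1.60 CPM, for Cacna2d3 in S100β-GFP+ cells. Of 10 genes of pore-forming and beta subunits of calcium channels, 7 were tested. In PSCs 6 of them were lower than in S100β-GFP+ cells (24.1% of all genes were) and 4 lower than in NG2-dsRed+ cells (23.1%), with none higher. Cacnb3, a beta subunit, was at 1.68 ± 1.05 CPM over the 9 PSC libraries (mean ± SD), 15.5 ± 6.14 over the 8 S100β-GFP+ libraries and 19.9 ± 4.18 over the 10 NG2-dsRed+ libraries, with no PSC library reaching the others. Cacna1c and Cacnb2, which belong to L-type channels, were lower in PSCs than in NG2-dsRed+ cells by -4.96 and -3.90 on the log2 scale. Pericyte and smooth muscle markers moved the same way, with 9 of 10 lower in PSCs than in NG2-dsRed+ cells (23.1% of all genes were; median -5.17). The part of such cells in the levels of the channel genes was not tested.

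Neurexins and neuroligins are the partners of hevin. Of 6 genes tested among the hevin and SPARC partners, PSCs were higher than S100β-GFP+ cells for 5 (22.9% of all genes were) and higher than NG2-dsRed+ cells for 4 (20.9%). Nrxn2 is listed at 0 in every library and was not tested. Nrxn3 ranged from 10.3 to 40.2 CPM in PSCs, from 0.138 to 5.41 CPM in S100β-GFP+ cells and from 0 to 2.58 CPM in NG2-dsRed+ cells. All PSC libraries were above all others, with log2 fold changes of 3.58 (SE 0.58, adjusted p = 7.5e-06) and 5.18 (SE 0.58, adjusted p = 2.11e-08). Nlgn3 was higher by 5.29 and 5.44. Nlgn2, the neuroligin of inhibitory synapses, was higher than in S100β-GFP+ cells (1.00, adjusted p = 0.00675) and differed by 0.61 from NG2-dsRed+ cells (adjusted p = 0.0744). Stab1, a scavenger receptor that takes up SPARC, was lower in PSCs than in both, by -1.26 and -2.11.

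Of 5 tested relatives of SPARC, 4 were lower in PSCs than in S100β-GFP+ cells (24.1% of all genes were) and 4 lower than in NG2-dsRed+ cells (23.1%), with none higher. Fstl1 was at 368 ± 54.2 CPM over the 9 PSC libraries (mean ± SD), 2087 ± 700 over the 8 S100β-GFP+ libraries and 607 ± 236 over the 10 NG2-dsRed+ libraries. Spock2, a testican gene, was lower by -3.79 and -3.05, and Smoc2 was lower than in NG2-dsRed+ cells by -2.87.
Collagens that bind SPARC or thrombospondins had 3 genes higher and 5 lower in PSCs than in S100β-GFP+ cells, of 9 tested (22.9% and 24.1% of all genes), and 2 higher and 7 lower than in NG2-dsRed+ cells (20.9% and 23.1%). The fibrillar collagens Col1a1, Col1a2, Col3a1, Col5a1 and Col5a2 were lower than in both, with Col3a1 at 611 ± 279 CPM over the 9 PSC libraries (mean ± SD), 14808 ± 4121 over the 8 S100β-GFP+ libraries and 3653 ± 1995 over the 10 NG2-dsRed+ libraries. The basement membrane collagens Col4a1 and Col4a2 had PSCs between the other populations, above S100β-GFP+ cells (1.07 and 1.30) and below NG2-dsRed+ cells (-1.35 and -1.09). Col2a1, the fibrillar collagen of cartilage, was past the test as higher in PSCs than in both, but outside library 31 it was at most at 13.9 CPM in PSCs.

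Of 13 tested genes among the other matricellular genes, PSCs had 4 higher and 8 lower than S100β-GFP+ cells (22.9% and 24.1% of all genes; median log2 fold change -1.16), and 4 were higher and 5 lower than in NG2-dsRed+ cells (20.9% and 23.1%; median -0.60). Matn2, a matrilin of peripheral nerve and muscle, ranged from 702 to 1467 CPM in PSCs, from 35.8 to 113 CPM in S100β-GFP+ cells and from 51.3 to 468 CPM in NG2-dsRed+ cells. All PSC libraries were above all others, with log2 fold changes of 4.22 and 2.68. Matn4 was higher by 4.38 and 6.54, and Postn, the gene of periostin, by 0.81 and 3.85 with 3455 ± 850 CPM in PSCs (SD, n = 9). Tnxb and Ccn3 were lower than in both populations, by -4.72 and -2.03 and by -4.83 and -3.37.

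Among 7 tested genes of other secreted glial synapse factors, PSCs had 2 higher and 3 lower than S100β-GFP+ cells (22.9% and 24.1% of all genes; median log2 fold change -0.36), and 3 higher and 4 lower than NG2-dsRed+ cells (20.9% and 23.1%; median -1.12). Agrn, whose product organizes the postsynaptic side of the neuromuscular junction, was higher in PSCs than in both (2.95 and 1.11), as was Apoe (1.40 and 3.43). Chrdl1, an astrocyte factor that matures synapses, was higher than in NG2-dsRed+ cells (3.28) and differed by -0.36 from S100β-GFP+ cells (adjusted p = 0.266). The glypican gene Gpc6 was lower than in both, by -2.34 and -1.69.
Thbs1 protein can activate latent TGF-beta, and of 8 genes of this system PSCs had 6 lower than S100β-GFP+ cells (24.1% of all genes were) and 6 lower than NG2-dsRed+ cells (23.1%), among them Tgfb1 (-1.88 and -1.12), Ltbp1 (-2.55 and -2.33) and Lrrc32 (-2.60 and -4.09). Ltbp3 was the exception, higher than in NG2-dsRed+ cells by 0.84. Of 9 proteases that cut thrombospondins or SPARC, PSCs had 6 lower and none higher than S100β-GFP+ cells (24.1% and 22.9% of all genes), and 4 lower and 2 higher than NG2-dsRed+ cells (23.1% and 20.9%). Mmp3 was at 28.9 to 147 CPM in S100β-GFP+ cells and at most 0.312 CPM in PSCs, and Adamts4 was lower than in both, with a mean of 20.7 CPM in PSCs beside means of 82.8 CPM (S100β-GFP+) and 275 CPM (NG2-dsRed+).

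**Figure D5:**
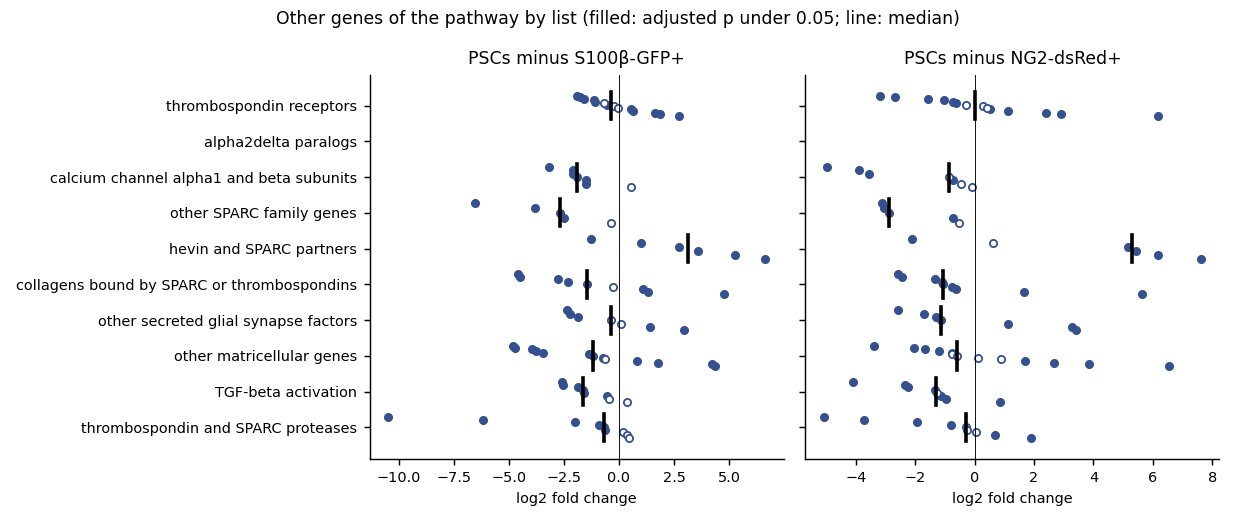
Log2 fold change of each tested gene of the 10 pathway lists (horizontal axis) in PSCs against S100β-GFP+ cells (left) and NG2-dsRed+ cells (right), by list (vertical axis). Filled points have an adjusted p under 0.05 and black lines are list medians; the list of hevin and SPARC partners, with Nlgn3 at 5.29 and 5.44, has the highest medians, and no paralog of Cacna2d1 was tested.

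For each gene the pattern most like its own was sought among 15322 other tested genes, as the smallest root mean square difference of centred log2 CPM over the 27 libraries. Sparc was nearest to Mmp14 (0.21) and Mia3 (0.23), and Cacna2d1 to Etnk1 (0.27) and Abl1 (0.28). Thbs2 was nearest to Reck (0.44), which had means of 80.8 (PSCs), 79.2 (S100β-GFP+) and 23.3 CPM (NG2-dsRed+), and to Slc2a13 (0.57). The nearest genes of Sparcl1 were Cobll1 (0.47) and Rgs3 (0.48), those of Thbs3 were Igdcc4 (0.54) and Igf1 (0.56), and those of Thbs1 were B3galnt1 (0.63) and Itga5 (0.66). No gene came as close to Thbs4, with Angptl7 (1.05) the nearest, or to Comp, with Fmod (1.28) and Timp1 (1.29). Over the same libraries the genes themselves varied by 0.41 (Sparc) to 2.36 (Thbs4), so a difference has to be read beside the gene's own spread.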

How the data were processed

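Per the study's methods, the authors used HISAT2 for alignment and HTSeq for counts per gene (the submitters' processing notes name both tools and the build GRCm38; tool versions are not given in the sources used), and the deposited table holds whole-number counts without normalization. Its 27 columns, none without a sample, were matched to samples by library number; 9 of the 36 labelled libraries were not analysed here. Symbols, positions and exon lengths came from GENCODE M21 (99.7% of identifiers).

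Counts were TMM-scaled, kept by filterByExpr (minimum count 10) and fitted with the quasi-likelihood test of edgeR 4.0.16 in R 4.3.3, as 1 fit of all libraries with Benjamini-Hochberg adjustment over 15330 genes at 0.05. DESeq2 1.42.0, the study's tool, limma 3.58.1 (voom with sample quality weights), other scalings, filters and samples were alternatives. The fit was checked on simulated counts with changes in PSCs alone, in far fewer genes than differed in these data. Against S100β-GFP+ and NG2-dsRed+ cells edgeR recovered 38.3% and 36.5% of 115 changes of log2 size 1. Of 83 changes of log2 size 2 it recovered 77.1% and 84.3%, and 3.57% and 5.08% of its calls were false. Log2 levels used a prior count of 2, and correlations 100000 permutations or, below 10 libraries, exact tests; ratios of 2 genes were compared by exact permutation tests. Intervals and floors were not needed; the depth is 5221655 to 9592875 counts, and PCR copies cannot be told from molecules. P-values measure the spread between libraries, each from 1 mouse; the labels do not say whether a mouse gave several libraries.

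The genes, lists and alternatives were chosen with earlier results of these data known. The rule for named genes takes the 8 genes, list members past the test with a log2 fold change of at least 2 in size or the highest levels of their list, the 2 nearest genes of each of the 8, their neighbours within 1000 bases, Cspg4, S100b, Lars2, Gm23935 and Gm15564. Other list members were named after their values were seen, and some genes that the rule takes are not reported here.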

Additional observations from a re-analysis of the deposited data

Results flagged for a closer look

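Of 54 groups of values checked for a sample far from the others, 8 had one. The rate that chance alone gives was not measured, and these groups share libraries. PSC library 31 was far above the other PSC libraries for Comp (257 CPM), Thbs3 (31.5 CPM) and the summed tenocyte and chondrocyte markers (4798 CPM). S100β-GFP+ library 1 was far above its group for Thbs4 (604 CPM), Comp (65.4 CPM) and the same markers (1298 CPM). PSC library 34 had the most myelinating Schwann cell markers of the PSC libraries (3520 CPM), and PSC library 18 the most macrophage and leukocyte markers (569 CPM). In library 18 Lyz2 alone made up 563 CPM of that sum. Library 18 was also the PSC library with the least Thbs3, Thbs4, Comp and Cacna2d1 and the most Sparc. What these libraries share with their levels was not tested.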

How the results depend on the processing

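Each of the 24 tests of the 8 genes was repeated under 36 alternatives, 27 of which left out 1 library, and 15 tests kept their call and direction in all of them. These include Thbs1, Thbs2, Thbs3 and Thbs4 in PSCs against both other populations, Sparc against S100β-GFP+ cells, and Sparcl1 and Cacna2d1 against NG2-dsRed+ cells. Comp in PSCs changed sign without PSC replicate 31 (-4.44 against S100β-GFP+ and -1.58 against NG2-dsRed+ cells), by DESeq2's Wald test (-3.98, adjusted p = 1.92e-10, and -1.05, adjusted p = 0.119) and by quality-weighted limma-voom (-3.81, adjusted p = 0.000187, and -0.78, adjusted p = 0.461). Leaving out each library in turn moved Comp between -4.44 and 0.63 against S100β-GFP+ cells and between -1.58 and 3.42 against NG2-dsRed+ cells. Differences near 0 also changed sign. For Cacna2d1 between PSCs and S100β-GFP+ cells it became 0.030 with a term for the share that Lars2, Gm23935 and Gm15564 took of each library and 0.036 without S100β-GFP+ libraries 14, 17 and 22. For Thbs4 between S100β-GFP+ and NG2-dsRed+ cells it became -0.35 by limma-voom, -0.030 with that term and -0.43 without S100β-GFP+ replicate 1, the lowest of -0.43 to 0.32 over the libraries left out. The cause of these changes was not tested.

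Sparcl1 passed the threshold between PSCs and S100β-GFP+ cells by limma-voom (0.79, adjusted p = 0.0478). Sparc passed it between PSCs and NG2-dsRed+ cells under 4 alternatives. Between S100β-GFP+ and NG2-dsRed+ cells the call was lost under 16 alternatives for Cacna2d1, 9 for Comp and 7 for Sparc, so these 3 calls are near the threshold. Leaving out 1 library gave 4 to 5, 7 to 8 and 3 to 6 called genes of the 8 in the 3 comparisons, the count of 3 without NG2-dsRed+ replicate 15, and 58 to 63, 55 to 60 and 50 to 58 of the other pathway genes. Lars2, Gm23935 and Gm15564 took 3.64% to 40.0% of a library's counts, and without them in the library sizes 10 of 24 mean levels rose by more than their SD, such as Sparc in PSCs (6867 CPM). Without the filter on low counts 16556 genes in place of 7199 differed between PSCs and S100β-GFP+ cells (3907 higher and 12649 lower in PSCs, against 3512 and 3687) and 10586 in place of 5100 between S100β-GFP+ and NG2-dsRed+ cells (8194 higher and 2392 lower in the former, against 2771 and 2329), and the median of all genes moved to -0.97 between PSCs and S100β-GFP+ cells and to 0.78 between S100β-GFP+ and NG2-dsRed+ cells. The 6 tests of the ratios, repeated without each library in turn (an alternative chosen after seeing the data), kept their direction and call. Where populations did not overlap in a ratio, a repeat could only give the smallest p again, so it says nothing about stability there. No paired analysis was possible because library numbers are unique and the labels do not tie libraries of different populations to 1 mouse.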
